A study of Mus musculus with 24 samples.

Results

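Abca1, Abcb11 and Abcb1a are 3 ABC transporters of the liver, measured here by the array features ST_Mm_001, ST_Mm_002 and ST_Mm_003. They were selected by ID, because their ratios of PCN-treated to vehicle RNA had been seen to lie lower in livers without the pregnane X receptor (PXR), so that selection rested on measured values of the wild type and PXR-deficient arrays. They are 3 of the 284 mouse features on the array, and all 3 were among the 236 that passed the filter on dim features. The gene names come from an older platform annotation, and 3 of 3 Entrez IDs matched a current RefSeq gene.

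Liver RNA was hybridised to 24 spotted 2-colour arrays, 6 per genotype. The 4 genotypes were wild type mice, mice deficient in the constitutive androstane receptor (CAR), mice deficient in PXR and mice deficient in both (CAR/PXR). All were male C57BL/6J mice aged 9 to 12 weeks on standard chow. In each genotype, mice given PCN at 40 mg/kg into the peritoneum were compared with mice given the vehicle, 5% DMSO in corn oil, and livers were taken after 12 h. PCN (pregnenolone 16α-carbonitrile) is a synthetic steroid that activates rodent PXR. The RNA of PCN-treated livers was labelled with Cy5 and a vehicle pool of the same genotype with Cy3 on every array, so each log2 ratio below is PCN over vehicle. No dye was swapped, and a dye effect specific to a feature cannot be told apart from a PCN effect within a genotype. There was 1 vehicle pool per genotype, so the spread between vehicle-treated animals enters no error given here, and a difference between genotypes can lie in either channel. The labels mention pooling of RNA from 6 replicates without naming the channel, and the 6 arrays of a genotype may therefore measure technical spread only. How the receptor alleles were made is not given in the sources used here.

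ABC transporters use ATP to move substrates across membranes. ABCA1 loads cholesterol and phospholipid onto lipid-poor apolipoprotein A-I, the first step in making high-density lipoprotein, and its gene is a classic target of the oxysterol receptors LXR. ABCB11, the bile salt export pump, secretes bile salts from the hepatocyte into the canaliculus and is induced through the bile acid receptor FXR. ABCB1A is one of the mouse P-glycoproteins, which export drugs and other foreign compounds and in rodents are counted among the genes that PXR can induce. PXR and CAR are nuclear receptors that sense foreign compounds and bind DNA as partners of RXR at pairs of short hexamer sites.

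The sequences before the annotated starts of the 3 genes are shown because Abcb11 and Abcb1a moved together across arrays and Abca1 less so. Each is the stretch of 250 bases before the start, from RefSeq (GRCm38.p6), written 5′ to 3′ on the gene's strand. Capitals mark the nuclear receptor hexamers AGGTCA and AGTTCA on either strand. In Abca1 they also mark both members of a sequence of the form of an LXR element, GGTTA and CGGTCA with 4 bases between them, on the opposite strand. The letters of that form were chosen with the sequences in view. The Abca1 stretch is chr4:53159896-53160145 (minus strand), that of Abcb11 is chr2:69342617-69342866 (minus strand) and that of Abcb1a is chr5:8566841-8567090 (plus strand). The annotated span of Abca1 reaches beyond the start used for its stretch.
Abca1: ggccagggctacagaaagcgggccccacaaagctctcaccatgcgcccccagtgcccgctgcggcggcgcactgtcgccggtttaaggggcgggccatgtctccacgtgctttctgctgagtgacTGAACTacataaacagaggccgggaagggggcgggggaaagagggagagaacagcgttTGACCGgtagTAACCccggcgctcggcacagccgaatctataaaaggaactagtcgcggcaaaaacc
Abcb11: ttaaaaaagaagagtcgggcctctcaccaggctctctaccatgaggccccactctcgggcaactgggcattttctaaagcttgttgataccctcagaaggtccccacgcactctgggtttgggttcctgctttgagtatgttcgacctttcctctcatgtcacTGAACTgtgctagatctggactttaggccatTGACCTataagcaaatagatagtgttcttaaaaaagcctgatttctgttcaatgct
Abcb1a: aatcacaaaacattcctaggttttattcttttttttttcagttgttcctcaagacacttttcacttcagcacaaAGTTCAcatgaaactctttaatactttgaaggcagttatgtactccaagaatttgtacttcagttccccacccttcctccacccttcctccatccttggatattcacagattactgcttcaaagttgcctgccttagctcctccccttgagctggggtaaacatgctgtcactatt

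Abcb11 held AGGTCA, read on the opposite strand, at bases -56 to -51 from the start and AGTTCA, also on the opposite strand, at -87 to -82. Abca1 held AGTTCA at -125 to -120 and the LXR-type sequence at -67 to -53, both on the opposite strand, and Abcb1a held AGTTCA at -176 to -171 on the strand shown. AGGTCA was found in 14% of 32851 such stretches of mouse genes and AGTTCA in 11.8%, and 24.2% held at least 1 of them. The LXR-type form was found in 4 of them. AGNTCA repeated in the same direction was searched with 3 and with 4 bases between, and as an inverted repeat with 1 base between. These paired forms were found in 0.0517%, 0.103% and 0.0274% of the stretches, and in none of these 3. The motifs did not overlap in these stretches. These are matches of letters in this window and no evidence of binding or of its absence.

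All 3 genes were well measured. Each had 3 spots per array and 72 over the study. Of these, 71 Abca1 spots, 72 Abcb11 spots and 72 Abcb1a spots were above background in each channel, 0 were saturated, and 1 Abca1 spot carried a flag. The median SD of the log2 ratio between the 3 spots of an array was 0.07 for Abca1, 0.08 for Abcb11 and 0.07 for Abcb1a, against 0.09 over all tested features. The least even arrays were CAR-deficient replicate 6 for Abca1, with a spot SD of 0.52, and wild type replicate 2 for Abcb11 and Abcb1a, with 0.61 and 0.70.

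Over all arrays, the median Cy5 foreground ran from 109 to 891 and the median Cy3 foreground from 175 to 1042, and 11.8% to 27.4% of spots were flagged. PXR-deficient replicate 2 stood apart before loess normalization, with a Cy5 foreground of 225.5 against a Cy3 foreground of 657.0. PXR-deficient replicate 1 leaned the same way, with 109 against 234, while the other arrays of the genotype had more Cy5 than Cy3. Results that rest on replicate 2 are also given without it where these were computed. The genotype means over 236 features correlated at 0.82 between wild type and CAR-deficient livers, and at -0.48 and -0.55 between CAR/PXR-deficient livers and the CAR-deficient and PXR-deficient livers. The labels state the dyes, and the directions given for CAR/PXR-deficient livers follow them, but because of these negative correlations an exchange of the channels on those arrays cannot be told apart from an opposite response. Every sign in CAR/PXR-deficient livers below, in the other gene groups too, would be the opposite with those arrays turned, and the members' results that rest on it are given both ways. Cyp3a11, the cytochrome P450 that serves as the standard PXR target of mouse liver, had a wild type log2 ratio of 2.94 ± 0.32, a CAR-deficient one of 2.23 ± 0.55, a PXR-deficient one of 0.30 ± 0.28 and a CAR/PXR-deficient one of -0.37 ± 0.33 (SD, n = 6). Nr1i2, which encodes PXR, had a median Cy3 level of 7.56 in the wild type and 7.80 in the PXR-deficient pool (log2 intensity), and Nr1i3, which encodes CAR, had 7.97 in the wild type and 7.65 in the CAR-deficient pool. Where these receptor features lie relative to the deleted parts of the genes is not given in the sources used here, so they do not check the genotypes. Apoa1, a hepatocyte gene, had mean Cy3 levels from 12.73 to 13.19 over the genotypes. In bulk liver RNA, fewer cells of a type and less RNA per cell cannot be told apart.

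**Figure D1:**
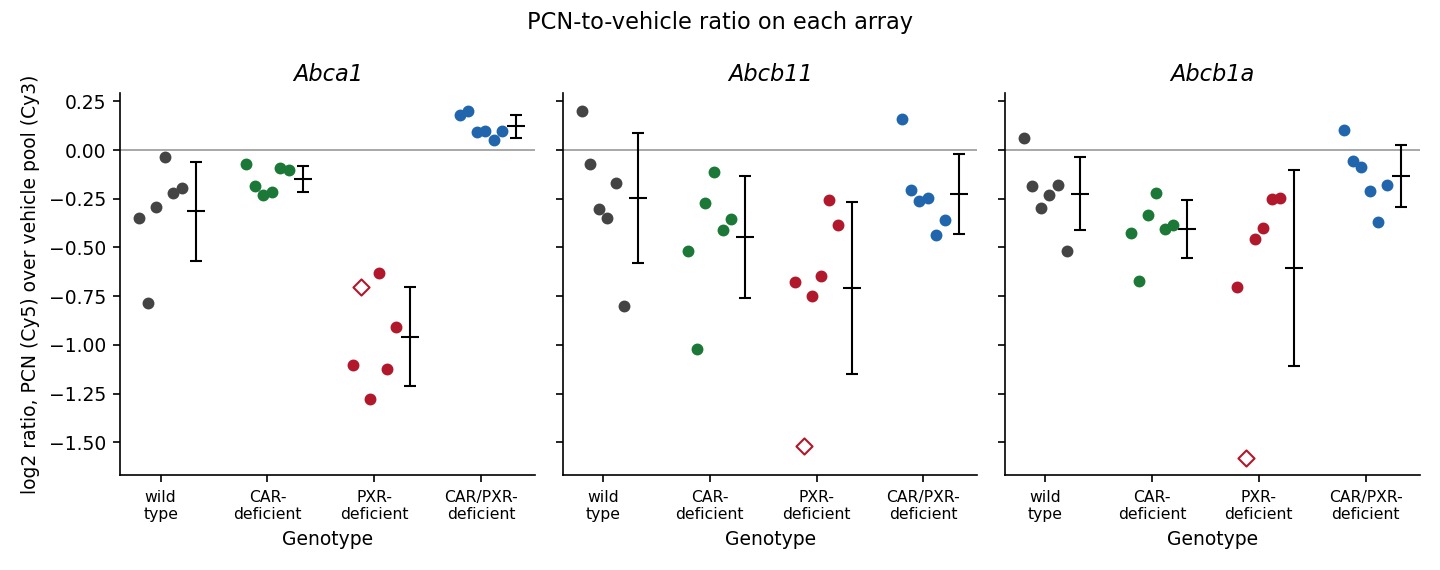
Log2 ratio of PCN-treated (Cy5) over vehicle-pool (Cy3) RNA for Abca1, Abcb11 and Abcb1a, with 1 point per array, 6 arrays per genotype, and the mean ± SD beside the points. The open diamond is PXR-deficient replicate 2. Abca1 sits lowest in PXR-deficient livers. In the labelled direction, which is shown, Abca1 is above 0 on all 6 CAR/PXR-deficient arrays, and the genotypes overlap for Abcb11 and Abcb1a.

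Abca1, the cholesterol exporter, had its lowest ratios in PXR-deficient livers. The values were -1.28 at the lowest, -1.01 at the median and -0.63 at the highest of the 6 PXR-deficient arrays, and the mean was -0.96 ± 0.26 (SD, n = 6), a ratio of 0.515. All 18 PXR-deficient spots of Abca1 lay below 0, between -1.37 and -0.57.

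In wild type livers, Abca1 ran from -0.78 through a median of -0.26 to -0.04, with a mean of -0.31 ± 0.25 (SD, n = 6). Wild type replicate 2 was the low array and was also uneven, its 3 spots running from -1.27 to -0.31. It is the array that made wild type overlap with PXR-deficient livers. Without it the wild type mean was -0.22 ± 0.12.

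CAR-deficient livers had Abca1 values of -0.23 at the lowest, -0.14 at the median and -0.07 at the highest. CAR/PXR-deficient livers had 0.05 at the lowest, 0.10 at the median and 0.20 at the highest, so Abca1 was above 0 on 6 of 6 arrays and in 18 of 18 spots there in the labelled direction. With those arrays turned, Abca1 ran from -0.20 through -0.10 to -0.05 there and overlapped with wild type and CAR-deficient livers. The low Abca1 values by which the gene was chosen were those of livers lacking PXR alone. Livers lacking both receptors lay wholly above them in the labelled direction, as they did for 17.8% of all features. They also did with those arrays turned, where this held for Abcb11 and Abcb1a too and the share of all features was not computed.

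Abca1 in PXR-deficient livers was 0.64 below wild type, 0.81 below CAR-deficient and 1.08 below CAR/PXR-deficient livers on the log2 scale. With the CAR/PXR-deficient arrays turned, the last difference was -0.84, and a fixed dye effect does not drop out of it. These differences include the arrays that led to the choice of the gene and are given without a test. With no overlap between arrays, Abca1 was the 1 of the 3 genes that lay below CAR-deficient livers, as 6.78% of the 236 features did. In the labelled direction it was also the 1 that lay below CAR/PXR-deficient livers, as 17.8% did. With the CAR/PXR-deficient arrays turned, all 3 genes lay below those livers on every array, and the share of all features was not computed. Against wild type, 0 of the 3 genes lay below on every array, as 12.3% of all features did. Wild type and CAR-deficient arrays lay wholly below the CAR/PXR-deficient arrays for Abca1 and for neither of the other genes, as 7.63% and 7.2% of all features did. This last arrangement was absent for Abca1 with the CAR/PXR-deficient arrays turned. For Abcb1a the CAR-deficient arrays then lay wholly below the turned ones. The share of all features was not computed for the turned arrays.

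Abcb11, the bile salt export pump, had PXR-deficient values of -1.52 at the lowest, -0.66 at the median and -0.26 at the highest, with a mean of -0.71 ± 0.44 (SD, n = 6). In wild type it ran from -0.80 through -0.24 to 0.20, with a mean of -0.25 ± 0.33 (SD, n = 6). In CAR-deficient livers it ran from -1.02 through -0.38 to -0.11, and in CAR/PXR-deficient livers from -0.43 through -0.25 to 0.16. In the labelled direction the 4 genotypes overlapped in every pair. Wild type replicate 1 and CAR/PXR-deficient replicate 1 were the arrays of these 2 genotypes above 0. With the CAR/PXR-deficient arrays turned, Abcb11 ran from -0.16 through 0.25 to 0.43 there and no longer overlapped with PXR-deficient livers.

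Abcb1a, the drug efflux pump, had PXR-deficient values of -1.58 at the lowest, -0.43 at the median and -0.25 at the highest, with a mean of -0.61 ± 0.51 (SD, n = 6). In wild type it ran from -0.52 through -0.21 to 0.06, with a mean of -0.22 ± 0.19 (SD, n = 6). CAR-deficient livers had -0.67, -0.40 and -0.22 as lowest, median and highest, and CAR/PXR-deficient livers had -0.37, -0.13 and 0.10. Here too every pair of genotypes overlapped in the labelled direction. The same arrays as for Abcb11, replicate 1 of wild type and of CAR/PXR-deficient livers, were above 0. With the CAR/PXR-deficient arrays turned, Abcb1a ran from -0.10 through 0.13 to 0.37 there. It then overlapped with neither CAR-deficient nor PXR-deficient livers.

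PXR-deficient replicate 2 was the lowest of its genotype for both Abcb11 and Abcb1a, but not for Abca1, where it was -0.70. Without it, the PXR-deficient means were -0.54 ± 0.21 for Abcb11, -0.41 ± 0.19 for Abcb1a and -1.01 ± 0.25 for Abca1 (SD, n = 5). The difference from wild type was -0.46 for Abcb11 and -0.38 for Abcb1a with that array. For Abcb1a it was -0.19 without it, which is within the SD of 0.19 of either group. For Abcb11 it was -0.29, against a wild type SD of 0.33. The naming of Abcb11 and Abcb1a as lowered without PXR therefore rested in part on 1 array. The CAR-deficient means were -0.45 ± 0.31 for Abcb11 and -0.41 ± 0.15 for Abcb1a (SD, n = 6).

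**Figure D2:**
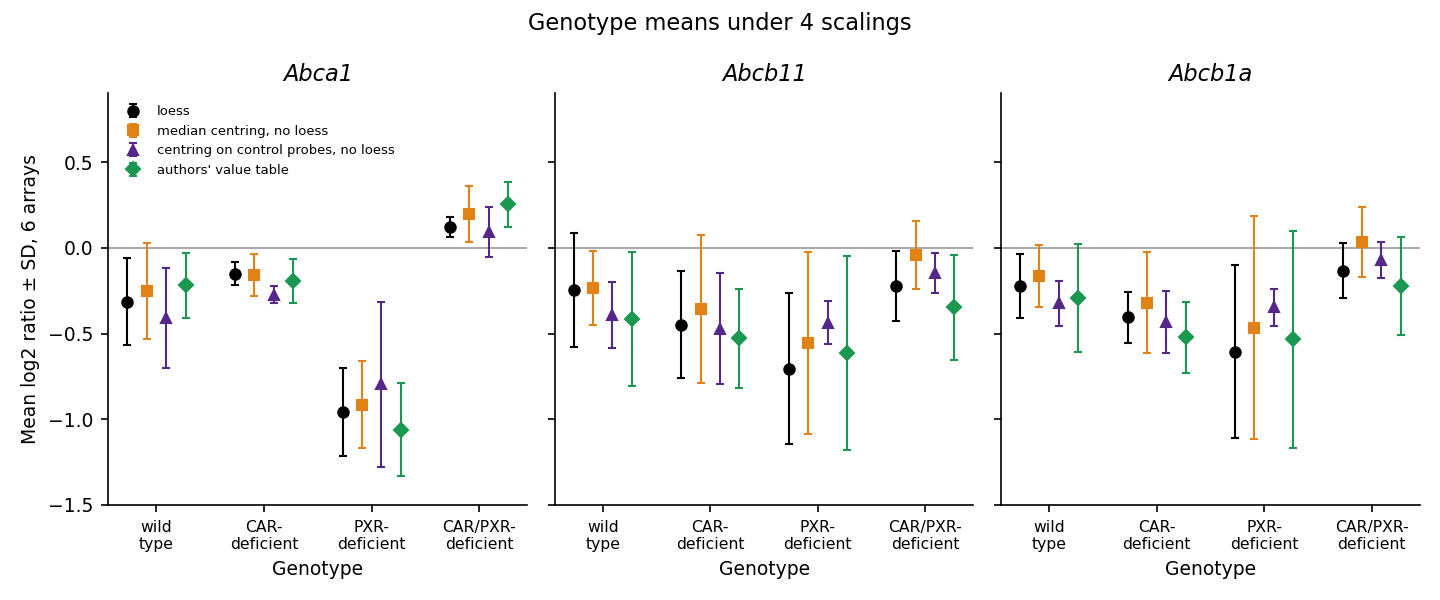
Mean log2 ratio ± SD over 6 arrays for the 3 genes and 4 genotypes under loess, median centring, centring on the control features and the authors' deposited value table. Abca1 stays lowest in PXR-deficient livers under each, while Abcb11 and Abcb1a lose most of their distance from wild type after centring on the control features.

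The distance from wild type also depended on the scaling. For Abca1 it was -0.64 after loess, -0.39 after centring on the control features without loess, and -0.84 in the authors' deposited table. Centring on control features moved the median of all tested features from -0.03 to 0.07 in PXR-deficient and from near 0 to -0.20 in wild type livers. Abcb11 then had means of -0.44 ± 0.13 in PXR-deficient and -0.39 ± 0.19 in wild type livers (SD, n = 6), a difference of -0.041. Abcb1a had -0.35 ± 0.11 and -0.32 ± 0.13 (SD, n = 6), a difference of -0.024. Both also came closer to wild type in the authors' deposited table, at -0.20 for Abcb11 and -0.24 for Abcb1a, and with array weights, at -0.25 and -0.19. Under control centring PXR-deficient replicate 2 was at 0.13 for Abca1, above every other array of its genotype, and without it the Abca1 mean was -0.98 ± 0.18. With all arrays, the CAR-deficient means under that centring were -0.47 ± 0.32 for Abcb11 and -0.43 ± 0.18 for Abcb1a (SD, n = 6), below the PXR-deficient means.

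**Figure D3:**
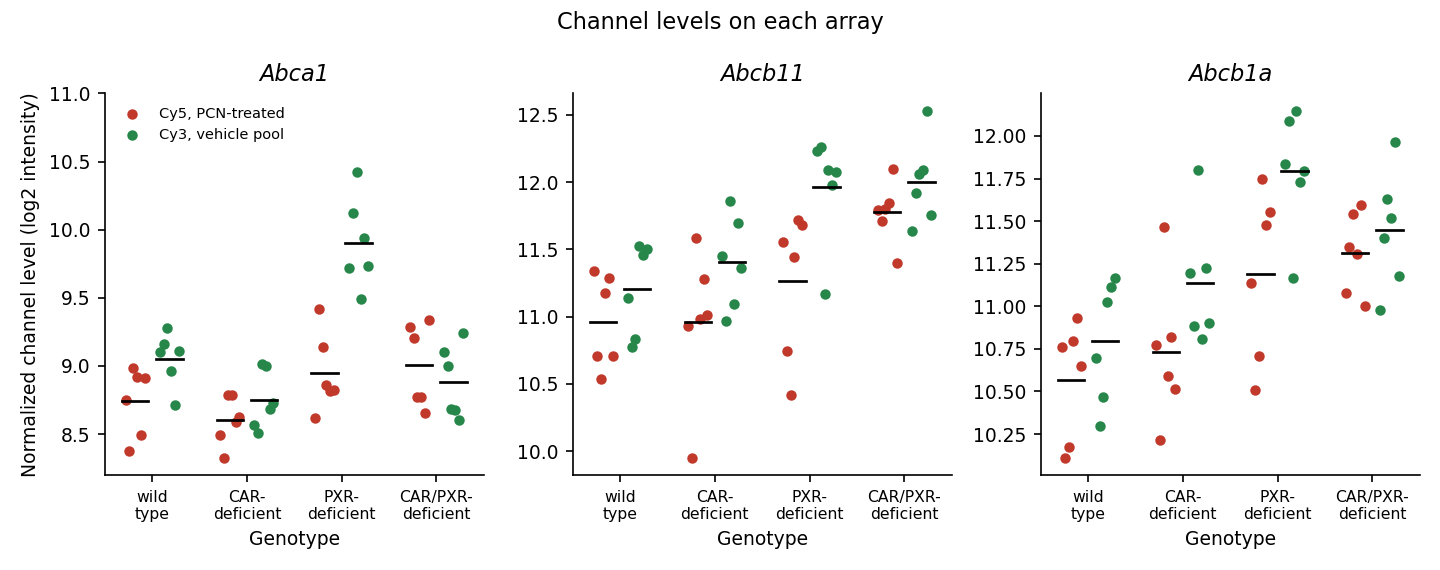
Normalized channel level (log2 intensity) of each gene on each array, with Cy5 for PCN-treated RNA and Cy3 for the vehicle pool, 6 arrays per genotype and black lines at the means. The panels have separate axes. For Abca1 the PXR-deficient Cy3 levels, 9.49 to 10.42, lie above all other Cy3 levels, while the Cy5 levels overlap between genotypes.

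The 2 channels were read separately to see which carried the low ratios. The levels are log2 intensities after normalization between arrays, and are compared within a gene only. The genes were chosen for lower Cy5 to Cy3 ratios on the PXR-deficient arrays. A high Cy3 level there is therefore not independent of that choice, and the shares of all features are given as a description. For Abca1 the PXR-deficient vehicle pool (Cy3) had 9.49 at the lowest, 9.84 at the median and 10.42 at the highest array, against 8.71, 9.11 and 9.28 in wild type, 8.51, 8.70 and 9.02 in CAR-deficient and 8.60, 8.84 and 9.24 in CAR/PXR-deficient livers. The PXR-deficient pool lay above the other 3 pools on every array, as 6.78% of all features did against the wild type, 2.97% against the CAR-deficient and 5.08% against the CAR/PXR-deficient pool. Its mean was 0.85 above the wild type pool. The Cy5 levels of CAR/PXR-deficient arrays, which would be the pool's with the channels exchanged, ran from 8.66 to 9.34 for Abca1 and also lay below it. After PCN (Cy5), Abca1 was at 8.95 ± 0.29 in PXR-deficient and 8.74 ± 0.25 in wild type livers (SD, n = 6), so the treated level was not the lower one. These Cy3 values come from repeated hybridisations of 1 pool per genotype, and the spread between vehicle-treated animals was not measured.

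For Abcb11 and Abcb1a the PXR-deficient pool was also higher than the wild type pool on average, but with overlap. For Abcb1a the Cy5 level was higher too, by 0.62. Without PXR-deficient replicate 2 the mean Cy3 and Cy5 levels there were 11.91 and 11.36 for Abcb11 and 11.74 and 11.32 for Abcb1a (n = 5). The PXR-deficient pool had a mean Cy3 level of 11.97 ± 0.41 for Abcb11, against 11.21 ± 0.34 in wild type, and the Cy5 level after PCN was 11.26 ± 0.55 against 10.96 ± 0.35 (SD, n = 6). For Abcb1a the Cy3 level was 11.79 ± 0.35 without PXR alone against 10.79 ± 0.36 in wild type, and the Cy5 level was 11.19 ± 0.50 against 10.57 ± 0.34 (SD, n = 6). PXR-deficient replicate 3 was low in Cy3, at 11.17 for Abcb11 and 11.16 for Abcb1a. For both genes it was the PXR-deficient array whose Cy3 level reached into the wild type range. In CAR/PXR-deficient livers the Cy3 level of Abcb11 was 12.00 ± 0.31 (SD, n = 6), close to that of the PXR-deficient pool, and its Cy5 level was 11.77 ± 0.23, so both channels were high there.

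The PCN response of the 3 genes in CAR-deficient livers was not used to choose them and was tested. Of the 3 genes, 2 fell and 0 rose, where 16.9% of the 236 features were called in either direction and 10.2% were called lower. The 2, Abcb11 and Abcb1a, correlated at r = 0.99 over these 6 arrays, so their calls are not separate observations. As no dye was swapped, a dye effect cannot be told apart from these falls. Abcb11 fell by 0.45 on the log2 scale, with a 95% interval from -0.71 to -0.19 (limma, adjusted p = 0.0124), a ratio of 0.733, and lay below 0 on 6 of 6 arrays. Abcb1a fell by 0.41, with an interval from -0.63 to -0.18 (limma, adjusted p = 0.00956), a ratio of 0.754, and lay below 0 on 6 of 6 arrays. Abca1 had a log2 ratio of -0.15, also below 0 on 6 of 6 arrays, with an interval from -0.30 to 0.002 (limma, adjusted p = 0.160), and did not pass the test. The falls were alike on arrays of both slide positions, at -0.40 and -0.49 for Abcb11 and -0.39 and -0.43 for Abcb1a (3 arrays each).

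CAR-deficient replicate 2 was the lowest array for Abcb11 and Abcb1a, at -1.02 and -0.67. It had the fewest mouse features above background of the 24 arrays, 158, and the most flagged spots, 27.4%. Without it Abcb11 was at -0.33 (limma, adjusted p = 0.0875) and no longer passed. Median centring in place of loess ended both calls, with -0.36 for Abcb11 (limma, adjusted p = 0.105) and -0.32 for Abcb1a (limma, adjusted p = 0.152). With PXR-deficient replicate 2 also left out, median centring gave the same log2 ratios and both were called (limma, adjusted p = 0.032 for each). Over all alternatives the adjusted p of limma ran from 0.00033 to 0.105 for Abcb11 and from 1.93e-05 to 0.152 for Abcb1a.

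In CAR/PXR-deficient livers, 0 of the 3 genes passed the test, where 22.5% of all features did. Abca1 was at 0.12 with a 95% interval from -0.03 to 0.27 (limma, adjusted p = 0.238). Abcb11 was at -0.22 with an interval from -0.48 to 0.04 (limma, adjusted p = 0.201) and Abcb1a at -0.13 with an interval from -0.36 to 0.10 (limma, adjusted p = 0.392), each below 0 on 5 of 6 arrays. At an unadjusted p under 0.05 the count was also 0, where 34.7% of all features passed, with the smallest p of limma at 0.0876 for Abcb11. A fit to this genotype alone, whose spread for Abca1 was 0.06 (SD, n = 6), called Abca1 (limma, adjusted p = 0.0327) and Abcb11 (limma, adjusted p = 0.0472), and 33.1% of all features. Over all alternatives the adjusted p ran from 0.0288 to 0.587 for Abca1 and from 0.0271 to 0.83 for Abcb11.

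The difference between CAR-deficient and CAR/PXR-deficient livers compares the presence and absence of PXR where CAR is missing. In the labelled direction a fixed dye effect drops out of it. None of the 3 genes passed, where 22.5% of all features did, and 1 of them, Abca1, had an unadjusted limma p under 0.05, at 0.0158, as 33.9% of all features did. CAR-deficient minus CAR/PXR-deficient was -0.27 for Abca1 with a 95% interval from -0.49 to -0.06 (limma, adjusted p = 0.0654), and the arrays of the 2 genotypes did not overlap. Abcb11 differed by -0.22, from -0.59 to 0.14 (limma, adjusted p = 0.432), and Abcb1a by -0.27, from -0.60 to 0.05 (limma, adjusted p = 0.234). With the CAR/PXR-deficient arrays turned, the differences were -0.03 for Abca1 (limma, adjusted p = 0.861), -0.67 for Abcb11 (limma, adjusted p = 0.00523) and -0.54 for Abcb1a (limma, adjusted p = 0.0104), so that 2 of 3 passed where 34.3% of all features did. Which of the 3 genes passed therefore depended on the direction of those arrays. A fixed dye effect does not drop out of the turned differences and cannot be told apart there from a difference between genotypes. Over all alternatives the adjusted p of limma ran from 0.00144 to 0.861 for Abca1, from 0.00523 to 0.749 for Abcb11 and from 0.00488 to 0.413 for Abcb1a.

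**Figure D4:**
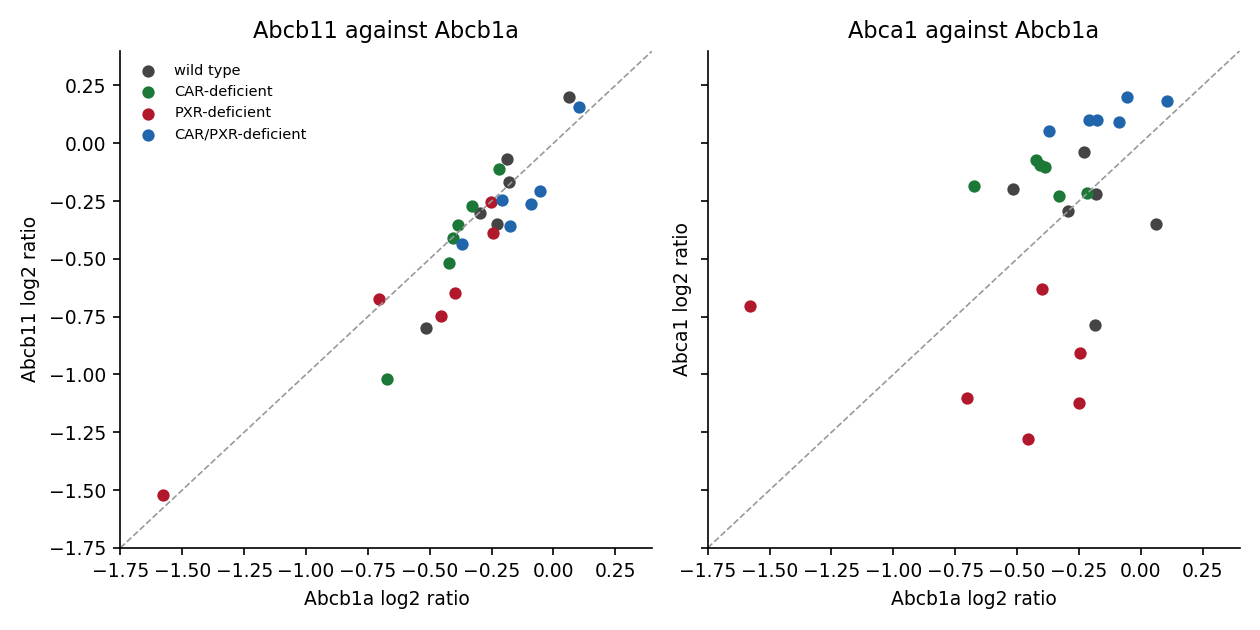
Log2 ratio of Abcb11 (left) and Abca1 (right) against that of Abcb1a on the 24 arrays, coloured by genotype, with the line of equal values. Abcb11 follows Abcb1a along the line with a mean distance of 0.11, while the PXR-deficient arrays of Abca1 lie off it.

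The 3 features carry neighbouring IDs, but only Abcb11 and Abcb1a gave like values. The log2 ratios of Abcb11 and Abcb1a differed by 0.11 on average and by at most 0.35 on any of the 24 arrays. After removing the genotype means, their values correlated at r = 0.90 over 24 arrays, and at 0.90 without PXR-deficient replicate 2 and 0.88 without the 2 arrays farthest from the median. The median over all 27730 pairs of features was -0.01, and 0.148% of pairs reached the r of Abcb11 and Abcb1a. Within genotypes, r was highest over the CAR-deficient arrays, at 0.99, and was 0.97 in wild type livers, 0.96 where PXR alone was missing and 0.90 where both receptors were (n = 6 each). The value of 0.96 includes PXR-deficient replicate 2, the lowest array of its genotype for both genes, at -1.52 and -1.58. It was not computed without that array. After centring on the control features, where whole arrays shift together and the median pair correlated at 0.58, Abcb11 and Abcb1a reached 0.77, as 22.7% of pairs did. The points share the array, the 2 dyes and the normalization, and these correlations are descriptions.

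Over all arrays Abca1 followed the others less. Its genotype-centred r was -0.32 with Abcb11 and -0.27 with Abcb1a over 24 arrays. Without PXR-deficient replicate 2 these were -0.16 and 0.02. After median centring they were 0.43 and 0.55, so that the sign depended on the scaling. Within the CAR/PXR-deficient arrays alone Abca1 correlated at 0.73 with Abcb11 and 0.82 with Abcb1a (n = 6), values that 8.57% and 4.84% of all pairs reached there. In the other genotypes r lay between -0.44 and -0.14. In PXR-deficient livers Abca1 and Abcb1a differed by 0.64 on average, against 0.13 for Abcb11 and Abcb1a.

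Abca1 and Abcb1a were printed side by side in blocks 1, 3 and 5, in rows 2 and 3 of column 2, whereas the spots of Abcb11 lay in blocks 2, 4 and 6. Whether position bears on the likeness of the values was not tested.

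Other features were ranked by the root mean square difference of their log2 ratio from each gene over the 24 arrays. For Abcb11 and Abcb1a the nearest feature was the other of the pair, at 0.149, against a median of 0.587 and 0.520 over all features. Beyond the pair, Ebp, which encodes a sterol isomerase of cholesterol synthesis, was nearest to both, at 0.241 from Abcb11 and 0.190 from Abcb1a. The mean log2 ratios of Ebp were -0.21 in wild type and -0.49 in PXR-deficient livers, and -0.34 and -0.17 in CAR-deficient and CAR/PXR-deficient ones. For Abca1 the nearest was ST_Mm_322, to which the annotation gives no gene, at 0.340 against a median of 0.578. Its mean was lowest in PXR-deficient livers, at -0.41, against -0.17 in wild type, and the CAR-deficient mean was -0.08 and that of CAR/PXR-deficient livers 0.06.

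**Figure D5:**
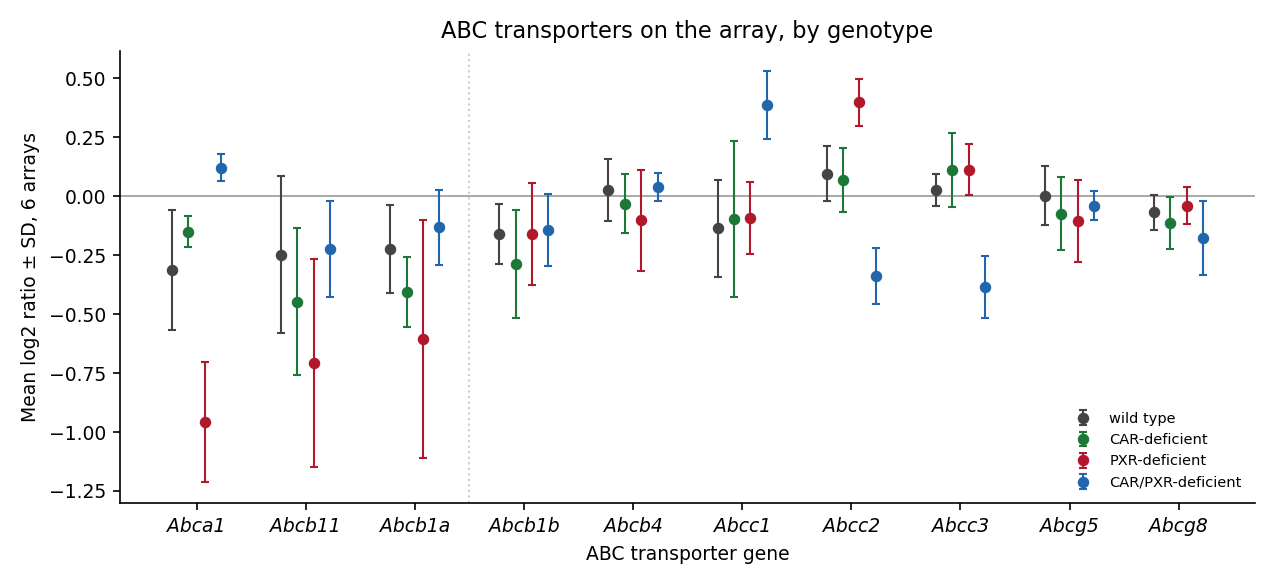
Mean log2 ratio ± SD over 6 arrays of the 10 ABC transporters named on the array, by genotype, with the 3 genes described here left of the dotted line. The other 7 lie between -0.39 and 0.40, and in PXR-deficient livers between -0.16 and 0.40. The 3 genes were chosen for low ratios in PXR-deficient livers and the other 7 were not.

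The array named 7 further ABC transporters, a list put together after the names were known. In CAR-deficient livers the median log2 ratio of the 7 was -0.07 against -0.01 over all features. Of the 7, 1 fell and 0 rose, where 16.9% of all features were called. The one was Abcb1b, the other mouse P-glycoprotein gene and close paralog of Abcb1a, at -0.29 ± 0.23 (SD, n = 6; limma, adjusted p = 0.00689). Since the probe sequences were not used here, how far the features for Abcb1a and Abcb1b detect each other's transcript was not tested. The log2 ratio of Abcb1b was -0.16 in both wild type and PXR-deficient livers, and CAR/PXR-deficient livers had -0.14.

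In CAR/PXR-deficient livers 1 of the 7 rose and 3 fell, where 22.5% of all features were called. The median of the 7 was -0.14 against 0.04 over all features. Abcc1 rose by 0.39 ± 0.14 (SD, n = 6; limma, adjusted p = 0.00142). Abcc3, a basolateral exporter of organic anions, fell by 0.39 ± 0.13 (SD, n = 6; limma, adjusted p = 2.97e-06). Abcc2, the canalicular exporter of organic anions, was at -0.34 ± 0.12 (SD, n = 6; limma, adjusted p = 1.36e-05). Abcg8, partner of Abcg5 in the sterol exporter of the canaliculus, was at -0.18 ± 0.16 (SD, n = 6; limma, adjusted p = 0.0093). Between CAR-deficient and CAR/PXR-deficient livers 2 of the 7, Abcc2 and Abcc3, were higher in CAR-deficient livers by 0.41 and 0.50, and 1, Abcc1, was lower by 0.48. In the same comparison 0 of Abca1, Abcb11 and Abcb1a passed, where 22.5% of all features did. With the CAR/PXR-deficient arrays turned, Abcb11 and Abcb1a passed, as 34.3% of all features did.

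Abcb11 belongs to the bile acid list and Abcb1a to the xenobiotic list. The 5 other bile acid genes had a median of 0.003 in CAR-deficient livers, against -0.01 over all features. Of these 5, 0 rose and 1 fell there, where 16.9% of all features were called. The one was Cyp8b1, the sterol 12α-hydroxylase, at -0.16 ± 0.16 (SD, n = 6; limma, adjusted p = 0.0384). In CAR/PXR-deficient livers 1 of the 5 rose and 0 fell, where 22.5% of all features were called. The gene that rose was Nr1h4, which encodes FXR, at 0.22 ± 0.10 (SD, n = 6; limma, adjusted p = 0.00489). In PXR-deficient livers Abcb11, which was chosen for its low ratios there, was at -0.71, or -0.54 without replicate 2. The other 5 were not chosen on these values and were nearer to 0. Cyp7a1, the rate-limiting enzyme of bile acid synthesis, had -0.20 ± 0.19, Nr1h4 -0.10 ± 0.18 and Nr0b2, which encodes the FXR target SHP, -0.08 ± 0.15 (SD, n = 6). Cyp8b1 and Cyp27a1, which encodes sterol 27-hydroxylase, were above 0 there, at 0.19 ± 0.08 and 0.19 ± 0.13 (SD, n = 6). Of the 5 other xenobiotic genes tested, 3 rose and 0 fell in CAR-deficient livers, where Abcb1a fell and 16.9% of all features were called. Their median there was 0.42. In CAR/PXR-deficient livers 1 of these 5 rose and 1 fell, with a median of -0.16, where 22.5% of all features were called.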

How the data were processed

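The deposited scanner tables hold 1 row per spot, 1440 per array, with foreground and background intensity in both channels, the percent of pixels over background, the percent saturated and a flag, per the file headers. RNA was labelled with an Agilent direct label kit, per the labels' protocols. The sources used here do not give the scanner or its settings. The authors' deposited value table holds log2 ratios. Its direction is that of the scanner values (r with the loess values from 0.77 to 1.00 over the arrays), its array medians run from -0.33 to 0.16, and its normalization stays unknown.

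With limma 3.58.1 (R 4.3.3), foreground medians were background-corrected by normexp with an offset of 50. For 1 of 48 channels, Cy5 of CAR/PXR-deficient replicate 6, its parameters were instead estimated by maximum likelihood, as the usual estimate failed. Loess (span 0.3, 4 iterations) on unflagged mouse spots normalized each array's log2 ratios, and spots were averaged. Features were tested where, on at least 50% of a genotype's arrays, at least 50% of the spots exceeded background by 2 SD in over 50% of pixels (236 tested, 48 removed). Channel levels followed Aquantile normalization. Limma was fitted with a coefficient per genotype to all 24 arrays, with Benjamini-Hochberg adjustment over 236 features and a threshold of 0.05. The fit was tested on simulated data. Precision is limited by the number of arrays. The platform annotation named 147 mouse features, 0 with several genes.

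The members and lists were chosen with earlier results of these data known. Named features are the 3 genes, for each the nearest other tested feature, and the lists (xenobiotic, cholesterol synthesis, bile acid, circadian, cell type markers), with ABC transporters added later. Of the cell type markers, 1 of 3 hepatocyte genes was named on the array, and 0 of the Kupffer cell, endothelium, cholangiocyte and leukocyte lists. Slide position was read from the spot coordinates. Same-numbered replicates did not deviate together, with r from -0.52 to 0.29, so numbers were not used as pairs. Alternatives covered the dye direction of the CAR/PXR-deficient arrays (added after seeing the data), the scaling, background, filter, flags, array weights, blocks and each array left out.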

Additional observations from a re-analysis of the deposited data

Results flagged for a closer look

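Abca1 had opposite signs on every array between CAR/PXR-deficient livers, at 0.12, and each other genotype. The difference was 0.43 from wild type and 1.08 from PXR-deficient livers, and neither was tested. From CAR-deficient livers it was 0.27, which missed the threshold (limma, adjusted p = 0.0654). The opposite signs hold in the labelled direction of the CAR/PXR-deficient arrays. With these turned, Abca1 was at -0.12 and below 0 on 6 of 6 arrays, and the signs were the same in all genotypes.

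Of 36 sets of 6 arrays, 2 had an array far from the rest, and about 1 in 20 would by chance. Abcb1a on PXR-deficient replicate 2 had a log2 ratio of -1.58, the gap to the next array taking a share of 0.657 of the range. Abcb11 on PXR-deficient replicate 3 had a Cy3 level of 11.17, with a share of 0.738.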

How the results depend on the processing

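Of the 3 genes, 2 were called in CAR-deficient livers, 0 after median centring, and 1 to 2 with 1 array left out (1 without CAR-deficient replicate 2). In CAR/PXR-deficient livers the count of 0 became 1 with array weights or in the authors' deposited table and 2 when only that genotype was fitted. Between these genotypes the count of 0 became 1 after centring on control features, print-tip loess, no background correction, array weights or in the authors' table, and 2 when only the groups compared were fitted. With 1 array left out it ran from 0 to 2, with 1 without wild type replicate 2 or PXR-deficient replicate 3 or 4 and 2 without PXR-deficient replicate 2. Control centring without that array, added after seeing the data, also gave 2, as did turning the CAR/PXR-deficient arrays, likewise added (Abcb11 and Abcb1a). PXR-deficient minus wild type moved to -0.39 for Abca1, -0.041 for Abcb11 and -0.024 for Abcb1a under control centring. For Abcb11 and Abcb1a it was -0.25 and -0.19 with array weights, -0.20 and -0.24 in the authors' table, and -0.13 and -0.067 after median centring without PXR-deficient replicate 2. The causes were not tested beyond these settings.

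Over all features, the 40 calls in CAR-deficient livers (16 higher, 24 lower) became 18 (5 higher, 13 lower) under control centring and 67 (10 higher, 57 lower) under that centring without replicate 2 of the PXR-deficient arrays, where all 3 genes were called. The 53 in CAR/PXR-deficient livers (25 higher, 28 lower) became 32 (20 higher, 12 lower) under control centring, 34 without replicates 5 and 6, whose Cy5 background is 0, and 88 with array weights. The 53 between them (26 higher, 27 lower) became 32 after median centring, 20 (7 higher, 13 lower) under control centring and 35 in the authors' table. Without PXR-deficient replicate 2 they became 35 after median centring and 36 (13 higher, 23 lower) under control centring, and with the CAR/PXR-deficient arrays turned 81 (42 higher, 39 lower). The 53 in CAR/PXR-deficient livers then split into 28 higher and 25 lower, and fitted alone that genotype gave 78.

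The replicate block left 2, 0 and 0 genes called, and slide position as a term, added after seeing the data, did the same.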

Other observations

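Of 5 tested cholesterol synthesis genes, 0 changed in CAR/PXR-deficient livers or between these and CAR-deficient livers, where 22.5% of all features were called (limma). In CAR-deficient livers 0 rose and 1 fell, with a median log2 ratio of -0.05, where 16.9% of all features were called. The one was Fdft1, which encodes squalene synthase, at -0.31 ± 0.29 (SD, n = 6; limma, adjusted p = 0.0218). In PXR-deficient livers the 5 genes had both signs, from -0.23 ± 0.30 for Lss, which encodes lanosterol synthase, to 0.46 ± 0.34 for Insig1, a sterol-responsive regulator (SD, n = 6). Of 2 tested circadian genes, Cry1 rose in CAR/PXR-deficient livers by 0.19 ± 0.08 (SD, n = 6; limma, adjusted p = 0.0181) and Per2, at -0.04, did not pass the test. The signs in CAR/PXR-deficient livers follow the labelled dyes.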
